A study of Mus musculus with 6 samples.

Results

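The 9 granzyme genes Gzma, Gzmb, Gzmc, Gzmd, Gzme, Gzmf, Gzmg, Gzmk and Gzmm and the perforin gene Prf1 are described here, 10 of the 55291 gene symbols in the deposited count table. They were chosen as a gene family, and also because Gzmc to Gzmg were already known to be uneven among the knockout libraries of these data, so their levels and their difference between genotypes are given as a description and support nothing. The study holds 6 bulk RNA-seq libraries, each from a tumour that grew under the skin from CT2A, a glioma line of mouse origin. A group of 3 libraries is labelled as from Siglece KO mice, and the other 3 as from WT mice; Siglece encodes Siglec-E, an inhibitory sialic acid receptor of myeloid cells. All 6 tumours carry the same cell line. The labels call the cells mouse GBM (glioblastoma) and name brain as the source beside the subcutaneous tumour, with no strain, age, sex or kind of knockout (not given in the sources used here). They do not say that the libraries of a group come from separate mice, so an error bar covers the spread between libraries, which may be partly technical. Replicate numbers follow accession order and only name the libraries. Wherever 3 values of a group are given, they are those of replicates 1, 2 and 3 in this order.

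Granzymes are serine proteases kept in the granules of cytotoxic lymphocytes. Perforin forms pores through which they reach the inside of a target cell, where granzyme B cuts after aspartate and starts apoptosis, while granzyme A is a trypsin-like protease. In the mouse, granzymes C to G are less well characterised relatives of granzyme B that cytotoxic T and NK cells make after strong activation, granzyme K is typical of a memory-like CD8 T cell state, and granzyme M is made mainly by NK cells and other innate lymphocytes. Mast cells can also hold granzyme B, and they make several of the proteases encoded next to the granzyme genes.

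Of the members, 6 lie side by side on the minus strand of chromosome 14. In mm10, with gene models from GENCODE M21, the run from the start of Gzme to the end of Gzmb, chr14:56117626-56262260, spans 144635 bases and holds Gzme, Gzmd, Gzmg, Gzmf, Gzmc and Gzmb in that order, with the related Gzmn between Gzmg and Gzmf. Gzma (chr13:113093825-113100981) and Gzmk (chr13:113171608-113225908) are neighbours on the minus strand of chromosome 13. Gzmm (chr10:79689020-79695261) and Prf1 (chr10:61297833-61304680) are on the plus strand of chromosome 10.

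The sequences just upstream of Gzmc to Gzmg and of Gzmb are shown because these 6 neighbouring genes followed 3 different orders over the libraries, described below. They are from RefSeq (GRCm38.p6, the mm10 assembly), on the minus strand, 5′ to 3′, and each ends shortly before the start site; all 10 members matched the RefSeq table. Capitals mark the core of a cAMP response element (TGACGT on either strand), a RUNX motif (TGTGGT) and, in Gzmb, an AP-1 motif (TGANTCA). The cAMP core reads the same on both strands where it is followed by CA, so its matches on the strands overlap, and no other motifs overlapped.
Gzmc chr14:56234674-56234777: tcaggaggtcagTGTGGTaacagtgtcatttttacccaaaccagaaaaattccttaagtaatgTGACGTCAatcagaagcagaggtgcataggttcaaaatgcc
Gzmd chr14:56132610-56132717: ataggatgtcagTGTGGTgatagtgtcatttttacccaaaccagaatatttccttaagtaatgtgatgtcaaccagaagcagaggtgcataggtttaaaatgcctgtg
Gzme chr14:56120642-56120750: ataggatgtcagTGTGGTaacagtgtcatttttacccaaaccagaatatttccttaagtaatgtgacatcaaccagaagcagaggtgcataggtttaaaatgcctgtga
Gzmf chr14:56211428-56211552: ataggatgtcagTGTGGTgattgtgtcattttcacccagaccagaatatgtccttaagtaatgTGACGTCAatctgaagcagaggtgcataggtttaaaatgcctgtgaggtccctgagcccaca
Gzmg chr14:56159596-56159719: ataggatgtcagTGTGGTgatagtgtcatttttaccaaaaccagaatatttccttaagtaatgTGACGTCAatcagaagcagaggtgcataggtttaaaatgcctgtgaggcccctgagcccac
Gzmb chr14:56262335-56262484: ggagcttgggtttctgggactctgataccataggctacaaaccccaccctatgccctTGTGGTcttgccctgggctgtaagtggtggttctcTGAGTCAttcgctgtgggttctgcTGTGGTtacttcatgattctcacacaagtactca

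The promoters of Gzmc to Gzmg share a run of 20 bases, and over the 250 bases before the start site those of Gzmd and Gzme were 95.2% identical. The other pairs among Gzmd to Gzmg were 86.9% to 88.3% identical, and Gzmc matched them at 82.4% to 83.4%. TGACGT was found before Gzmc, Gzmf, Gzmg and Prf1 but not before Gzmd or Gzme, and 6.47% of 32851 mouse promoters of the same length hold it. TGTGGT was found before 9 members, all except Gzmk, against 14.0% of promoters. TGANTCA was found before Gzmb alone among the members (6.75% of promoters). The T-box motif GGTGTG was found before Gzmk alone (16.3% of promoters), and the STAT motif TTCNNNGAA before Gzmm alone (7.02% of promoters).

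The copies are alike in their transcripts too, which limits how reads can be told apart. Gzmd and Gzme transcripts were 93.4% identical and the other pairs among Gzmd to Gzmg 85.8% to 90.3%, whereas Gzmc matched these 4 at 71.8% to 73.2%. Of all stretches of 50 bases, 78.1% to 80.6% were unique to the gene in Gzmd to Gzmg and 95.9% in Gzmc. Stretches of 150 bases were unique in every member except Gzmf (99.4%), which shares some with the predicted gene Gm4022 on the other strand. Neither the read length nor the treatment of reads with several matches is known (not given in the sources used here), so the split of counts among Gzmd to Gzmg is uncertain, and their sum is given beside them. Gm4022 itself held at most 1 count in any library.

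The libraries held 24369359 to 40574093 counts, so that 3 counts correspond to 0.082 to 0.15 CPM, the count scaled to a common library size and corrected for composition. Counts of Siglece were 0, 8 and 0 in the KO libraries and 74, 99 and 64 in the WT libraries. The closest libraries, WT replicates 2 and 3, had a chi-square per degree of freedom of 10.2, against 93.3 to 812 for the other pairs. This is beyond counting noise, but it cannot show that they are separate samples. KO replicate 2 was nearer to WT replicates 2 and 3 (93.3 and 98.4) than to KO replicates 1 and 3 (305 and 414). All libraries were fitted as separate samples. KO replicates 1 and 3 stood apart from the other libraries: 9 glioma and astroglial markers summed to 83.9 and 66.4 CPM there, against 633 CPM in KO replicate 2 and 861 to 917 CPM in the WT libraries. KO replicate 3 had 4.40% of its counts in mitochondrially encoded genes, the other KO libraries 1.92% and 2.11%, and the WT libraries 0.717% to 1.13%.

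All 10 members were detected in every library, although Gzmg had only 2 counts in WT replicate 1. Their summed level was 255, 161 and 755 CPM in the KO libraries and 115, 58.1 and 51.9 CPM in the WT libraries. Every KO library was above every WT library in this sum, and KO replicate 3 was 2.96 times KO replicate 1 and 4.70 times KO replicate 2. Behind the sum stood genes with different orders among the libraries. Perforin and Gzmb were highest in KO replicate 1, Gzma and Gzmc in KO replicate 3 with WT replicate 1 above the other KO libraries or close to them, Gzmk in KO replicates 1 and 3 alike, and Gzmd to Gzmg almost entirely in KO replicate 3.

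**Figure D1:**
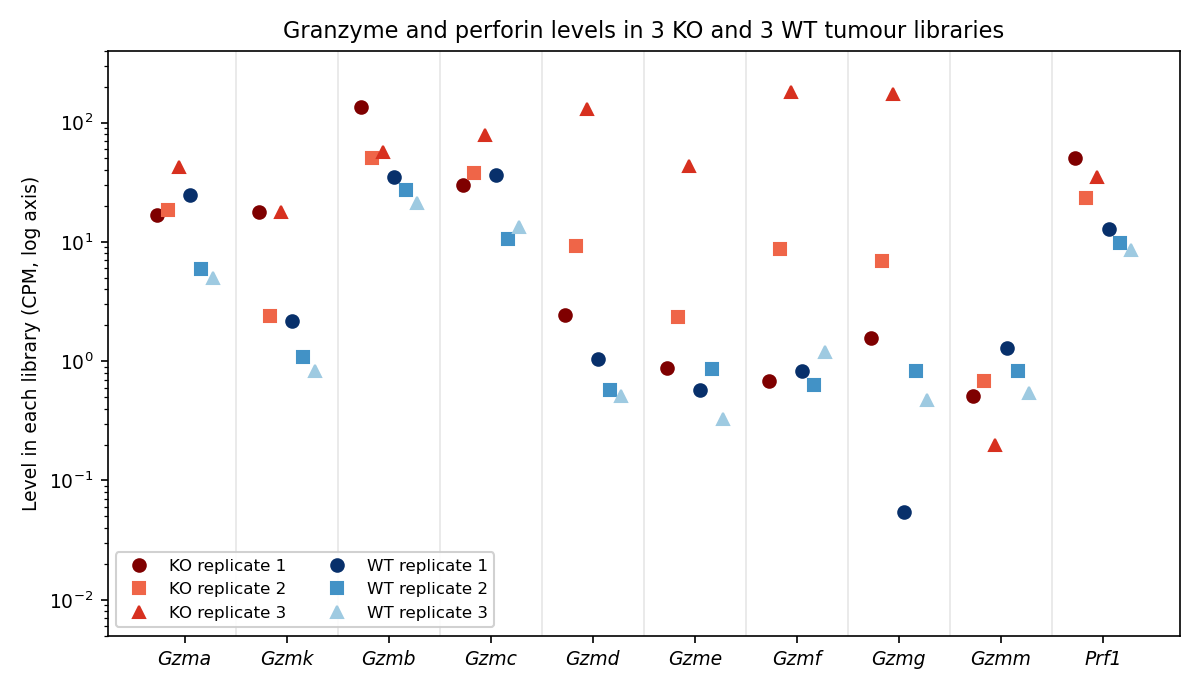
Level of each member in the 6 libraries (CPM, log axis), with KO libraries in red and WT libraries in blue. Gzmd to Gzmg spread over more than a decade among the KO libraries, from 0.68 to 180 CPM for Gzmf, while Prf1 spread least.

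Prf1, the pore-forming protein, was at 50.0, 23.4 and 35.0 CPM in the KO libraries and at 12.9, 9.83 and 8.63 CPM in the WT libraries. No WT library reached a KO library. The means were 36.1 ± 13.3 CPM for KO and 10.4 ± 2.19 CPM for WT (SD, n = 3 each), a fitted log2 fold change of 1.79 with a standard error (SE) of 0.36. This was the most even member, with a ratio of 2.14 between the highest and lowest KO library and 1.49 between the WT libraries.

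Gzmb, the main caspase-activating granzyme, was at 135, 50.7 and 56.6 CPM in the KO libraries and at 35.1, 27.0 and 21.2 CPM in the WT libraries. Its groups did not overlap, and KO replicate 1 stood above the rest at 4.85 times the WT mean, against 1.83 and 2.04 times in KO replicates 2 and 3. Mean levels were 80.7 ± 46.9 CPM for KO and 27.8 ± 6.98 CPM for WT (SD, n = 3 each). The log2 fold change was 1.54 (SE 0.43), and 0.89 without KO replicate 1.

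Gzma, the trypsin-like granzyme, was at 16.8, 18.5 and 42.3 CPM in the KO libraries and at 24.7, 5.95 and 4.97 CPM in the WT libraries. WT replicate 1 lay above KO replicates 1 and 2, so the groups overlapped. Its log2 fold change of 1.12 (SE 0.68) was 2.22 without WT replicate 1 and 0.53 without KO replicate 3. The spread within WT, 4.97-fold, exceeded that within KO, 2.52-fold.

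Gzmc, which sits between Gzmb and the Gzmd to Gzmg genes in the locus, had levels much like those of Gzma in order, at 29.8, 37.8 and 79.1 CPM in the KO libraries and 36.6, 10.6 and 13.2 CPM in the WT libraries. Again WT replicate 1 lay within the KO range. The log2 fold change was 1.28 (SE 0.57), 2.02 without WT replicate 1 and 0.71 without KO replicate 3. KO replicate 3 was 2.65 times KO replicate 1 for Gzmc, the same order and about the same size as for Gzma (2.52). So the unevenness among KO libraries that was noted for Gzmc to Gzmg was far smaller in Gzmc than in the other 4 genes.

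Gzmd was at 2.45, 9.26 and 129 CPM in the KO libraries and at 1.04, 0.57 and 0.506 CPM in the WT libraries. Gzme was at 0.884, 2.36 and 43.4 CPM in the KO libraries and 0.574, 0.855 and 0.327 CPM in the WT libraries. Both had every KO library above every WT library, but Gzme in KO replicate 1 exceeded the highest WT library only by 0.884 against 0.855 CPM. KO replicate 3 was 52.7 times KO replicate 1 for Gzmd and 49.0 times for Gzme.

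Gzmf was at 0.68, 8.74 and 180 CPM in the KO libraries and at 0.82, 0.627 and 1.19 CPM in the WT libraries. Here KO replicate 1 fell among the WT libraries, so the groups overlapped, and KO replicate 3 was 265 times KO replicate 1. Gzmg was at 1.56, 6.92 and 172 CPM in the KO libraries and 0.0546, 0.826 and 0.476 CPM in the WT libraries, and the groups did not overlap. Its value in WT replicate 1 is below the level of 3 counts.

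Summed, Gzmd to Gzmg had 164, 958 and 10517 counts in the KO libraries and 91, 101 and 84 counts in the WT libraries. In CPM the WT libraries were at 2.49, 2.88 and 2.5 and KO replicates 1 and 2 at 5.58 and 27.3, so that the WT libraries were level with each other while the KO libraries were not. Compared with the WT mean, KO replicate 1 was 2.13 times, KO replicate 2 10.4 times and KO replicate 3 200 times as high. The fitted log2 fold changes were 6.04 (SE 1.47) for Gzmd, 4.72 (SE 1.43) for Gzme, 6.16 (SE 1.78) for Gzmf and 7.05 (SE 1.89) for Gzmg. Without KO replicate 3 they were 3.01, 1.44, 2.39 and 3.21, and the sum of the 4 genes went from 6.14 to 2.62. They were also smaller in limma-voom, at 4.19, 2.82, 3.36 and 5.14, and with quality weights, at 3.21, 1.61, 1.33 and 2.59. The KO mean of the sum, 186 ± 293 CPM (SD, n = 3), rested mostly on KO replicate 3.

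Gzmk was at 17.8, 2.39 and 17.7 CPM in the KO libraries and at 2.16, 1.08 and 0.833 CPM in the WT libraries. KO replicates 1 and 3 were level with each other, about 13 times the WT mean, while KO replicate 2 was just above the highest WT library. The log2 fold change was 3.21 (SE 0.80), and 2.86 without KO replicate 3. Gzmk overlaps Esm1 on the opposite strand, and the library method does not mark strand. Esm1 followed another order, with 219, 646 and 136 counts in the KO libraries and 251, 283 and 217 in WT.

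Gzmm was the only member with a lower fitted level in KO, at 0.51, 0.684 and 0.199 CPM in the KO libraries and 1.28, 0.826 and 0.536 CPM in the WT libraries. These levels rest on 4 to 47 counts per library, and the groups overlapped. Its log2 fold change was -0.90 (SE 0.69), not distinguishable from no change at this depth, and it stayed below 0 in each of the 12 other settings in which it could be fitted.

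Read per length of merged exons, in RPKM, the order of the genes differed between groups. In WT the highest mean levels were those of Gzmc (22.5 RPKM), Gzmb (19.3 RPKM) and Gzma (11.8 RPKM), followed by Prf1 (4.04 RPKM), which was above each of the remaining members in every WT library. Gzmb was the most even of these, with 24.5, 18.8 and 14.8 RPKM in the WT libraries, and Gzmc, at 40.9, 11.8 and 14.8 RPKM, did not differ from it beyond the spread. The other 6 members were each below 1 RPKM on average in WT, from 0.498 RPKM for Gzmg to 0.978 RPKM for Gzmk, and neighbours in that order did not differ beyond their spread.

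In KO the mean per-length levels were 68.7 RPKM for Gzmf, 66.1 RPKM for Gzmg, 56.2 RPKM for Gzmb, 54.7 RPKM for Gzmc and 48.7 RPKM for Gzmd, but no single KO library showed that order. Gzmb led in KO replicate 1 with 93.8 RPKM, Gzmc in KO replicate 2 with 42.3 RPKM (Gzmb 35.3 RPKM), and Gzmf in KO replicate 3 with 196 RPKM, followed by Gzmg with 189 RPKM and Gzmd with 134 RPKM. Gzma (25.7 RPKM), Gzme (17.0 RPKM), Prf1 (14.0 RPKM) and Gzmk (9.10 RPKM) followed, with overlapping libraries between neighbours, and Gzmm was lowest in every KO library (mean 0.316 RPKM). The SD of each of Gzmd to Gzmg over the KO libraries exceeded its mean, so their places in the order are not separated from those beside them.

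Shares of the granzyme counts show the change of makeup without reference to library size. Gzmd to Gzmg made up 2.72% (exact 95% binomial interval 2.32% to 3.16%) of granzyme counts in KO replicate 1, 19.9% (18.7% to 21.0%) in KO replicate 2 and 72.8% (72.1% to 73.5%) in KO replicate 3. In WT replicates 1, 2 and 3 the share was 2.43% (1.96% to 2.98%), 5.96% (4.88% to 7.19%) and 5.78% (4.63% to 7.10%). KO replicate 1 was thus within the WT range by this measure, and the intervals cover counting error only. Gzmb went the other way, from 65.6% in KO replicate 1 to 36.9% and 7.86% in KO replicates 2 and 3, beside 34.3%, 55.9% and 49.0% in the WT libraries.

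Gzma took 24.1% of granzyme counts in WT replicate 1, against 12.3% and 11.5% in the other WT libraries and 5.87% to 13.5% in KO. Gzmk took 8.69% in KO replicate 1 and between 1.74% and 2.46% in every other library, although its level was alike in KO replicates 1 and 3 (17.8 and 17.7 CPM). Within the Gzmd to Gzmg sum the parts also shifted: Gzmf was 12.2%, 32.0% and 34.3% of it in the KO libraries, and Gzmd 43.9%, 33.9% and 24.6%. In WT replicate 1 Gzmg was 2.20% of 91 counts, against 28.7% and 19.0% in WT replicates 2 and 3, with the uncertainty of near-identical copies in all these splits.

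**Figure D2:**
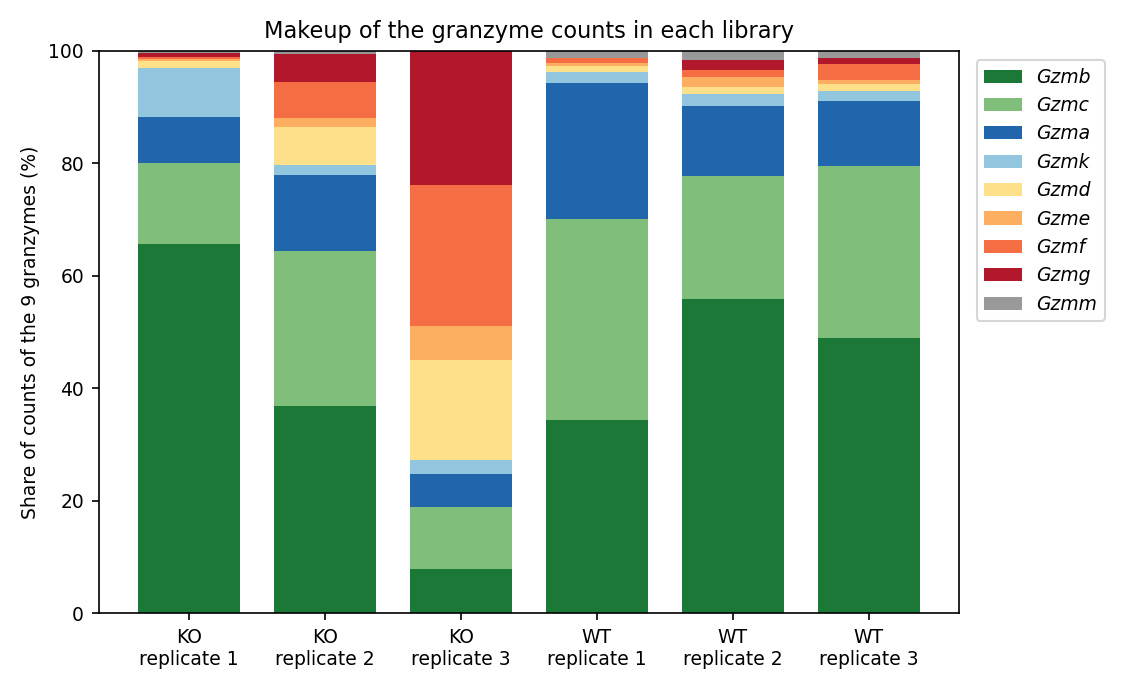
Share of the counts of the 9 granzymes taken by each gene (%, stacked to 100) in the 6 libraries. Gzmb is the largest part in KO replicate 1 (65.6%), and Gzmd to Gzmg together are 72.8% in KO replicate 3.

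With edgeR's quasi-likelihood test over 18621 genes, all 10 members passed the filter on low counts, and 3 of them, Gzmd, Gzmk and Prf1, were past a Benjamini-Hochberg adjusted p of 0.05 as higher in KO, beside 11.2% of all genes tested. None was past it as lower (0.226% of all genes), none at an unadjusted p under 0.05 (1782 of 18621 genes), and none with DESeq2 or limma-voom. Every KO library was above every WT library for 6 members (Gzmb, Gzmd, Gzme, Gzmg, Gzmk and Prf1), beside 24.6% of all genes. The members' median log2 fold change was 2.5, and that of all genes tested -0.05; without any composition scaling all genes moved by -0.13 at the median, and the members' median was 2.35. Nothing is read from these counts, since the members were picked on the same contrast.

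The calls depended on single libraries and on the tool. Without KO replicate 3 none of the members was called (4.85% of all genes higher), and 6 were higher at an unadjusted p under 0.05, beside 3560 of 19432 genes. None was called without KO replicate 1 or without WT replicate 1, 2 or 3, where no gene at all was called (0% of all genes). In those 4 fits 7 to 8 members were higher at an unadjusted p under 0.05, beside 3096 to 3982 of 19380 to 19694 genes. Without KO replicate 2, 7 were called, beside 22.7% of all genes, and without the filter on low counts also 7, beside 8.71%. DESeq2 called 6 (16.2% of all genes), limma-voom 1 (5.31%) and limma-voom with quality weights 6 (29.7%). Prf1 was the only member called with all 3 of these.

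Markers of the cells that can carry granzymes differed between the libraries as well, so in bulk tissue more cells of a type and more RNA per cell cannot be told apart. The 10 T cell markers summed to 636, 182 and 531 CPM in the KO libraries and 117, 74.3 and 61.1 CPM in the WT libraries, with 8 of 10 called higher. The 10 NK cell markers summed to 86.6 to 218 CPM in the KO libraries and 28.4 to 49.8 CPM in the WT libraries (4 of 10 called higher), and the 10 mast cell markers to 957, 354 and 272 CPM in the KO libraries and 117 to 151 CPM in the WT libraries (6 of 10 called higher). Beside these counts and those of the marker lists below, 11.2% of all genes tested were called higher. The sums of the T cell, NK cell and mast cell lists were highest in KO replicate 1, as Prf1 and Gzmb were. Of their 10 markers each, 3, 2 and 0 were higher in KO replicate 3 than in KO replicate 1. None of these markers was at 0 in any library. The fibroblast sum was highest in KO replicate 1 as well, at 27700, 9330 and 19800 CPM in the KO libraries and 1640 to 2620 CPM in the WT libraries.

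Other lists had their highest sum in KO replicate 3, as Gzmd to Gzmg had, though not every gene in them followed. Of the macrophage markers 6 of 8 were higher there than in KO replicate 1, and of the tissue-resident and type 1 innate lymphocyte markers 4 of 9. The gamma-delta T cell, adipocyte and skeletal muscle lists had 3 of 3, 7 of 7 and 5 of 5. The neutrophil and keratinocyte lists had 6 of 8 and 4 of 7. Macrophage markers summed to 11600, 3240 and 13500 CPM in the KO libraries and 1430 to 2340 CPM in the WT libraries (7 of 8 called higher). Markers of tissue-resident and type 1 innate lymphocytes summed to 326, 170 and 402 CPM in the KO libraries. In the WT libraries these were at 99.1 to 132 CPM (4 of 9 called higher). Il7r, the largest part in KO replicate 3, made up 23.2%, 15.9% and 30.8% of the sum in the KO libraries. Trdc, Sox13 and Cd163l1, the 3 gamma-delta T cell markers in the table used here, summed to 61.7, 23.8 and 140 CPM in the KO libraries and 5.24 to 6.80 CPM in the WT libraries (3 of 3 called higher). Adipocyte markers summed to 113, 53.2 and 923 CPM in the KO libraries and 12.0 to 33.8 CPM in the WT libraries (2 of 7 called higher). Fabp4 alone made up 86.6%, 72.8% and 87.8% of that KO sum, while Adipoq, which defines adipocytes, was at 0.272, 1.28 and 13.4 CPM there and 0.268 to 0.484 CPM in the WT libraries. Skeletal muscle markers summed to 815, 258 and 1970 CPM in the KO libraries and 76.4 to 184 CPM in the WT libraries (4 of 5), and neutrophil markers to 151, 45.9 and 253 CPM in the KO libraries and 12.8 to 15.6 CPM in the WT libraries (2 of the 4 tested). Ly6g, which defines neutrophils, had 0 counts in 5 libraries and 1 count in WT replicate 3, and Csf3r made up 96.7%, 87.6% and 45.1% of the neutrophil sum in the KO libraries. S100a8, S100a9, Retnlg and Cxcr2 were at 36.1, 42.1, 26.7 and 11.8 CPM in KO replicate 3. In KO replicates 1 and 2 they were at 0.102 to 1.05 CPM, and in the WT libraries at most at 0.902 CPM. Mmp8 was at 3.47, 3.02 and 21.9 CPM in the KO libraries, and Camp at most at 0.299 CPM. Keratinocyte markers summed to 13.6, 4.27 and 22.1 CPM in the KO libraries and 1.84 to 3.11 CPM in the WT libraries, with Sfn called higher among 3 tested and Krt5 at 0 counts in every KO library. The Gzmd to Gzmg sum was higher in KO replicate 2 than in KO replicate 1, at 27.3 against 5.58 CPM. Of the genes of these lists, 5 of 7 adipocyte markers and 4 of 8 neutrophil markers were likewise higher in KO replicate 2. So were 3 of 9 tissue-resident and type 1 innate lymphocyte markers and 1 of 7 keratinocyte markers. None of the T, NK, mast, gamma-delta T cell, macrophage and muscle markers was. The part of these cells in the granzyme levels was not tested.

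**Figure D3:**
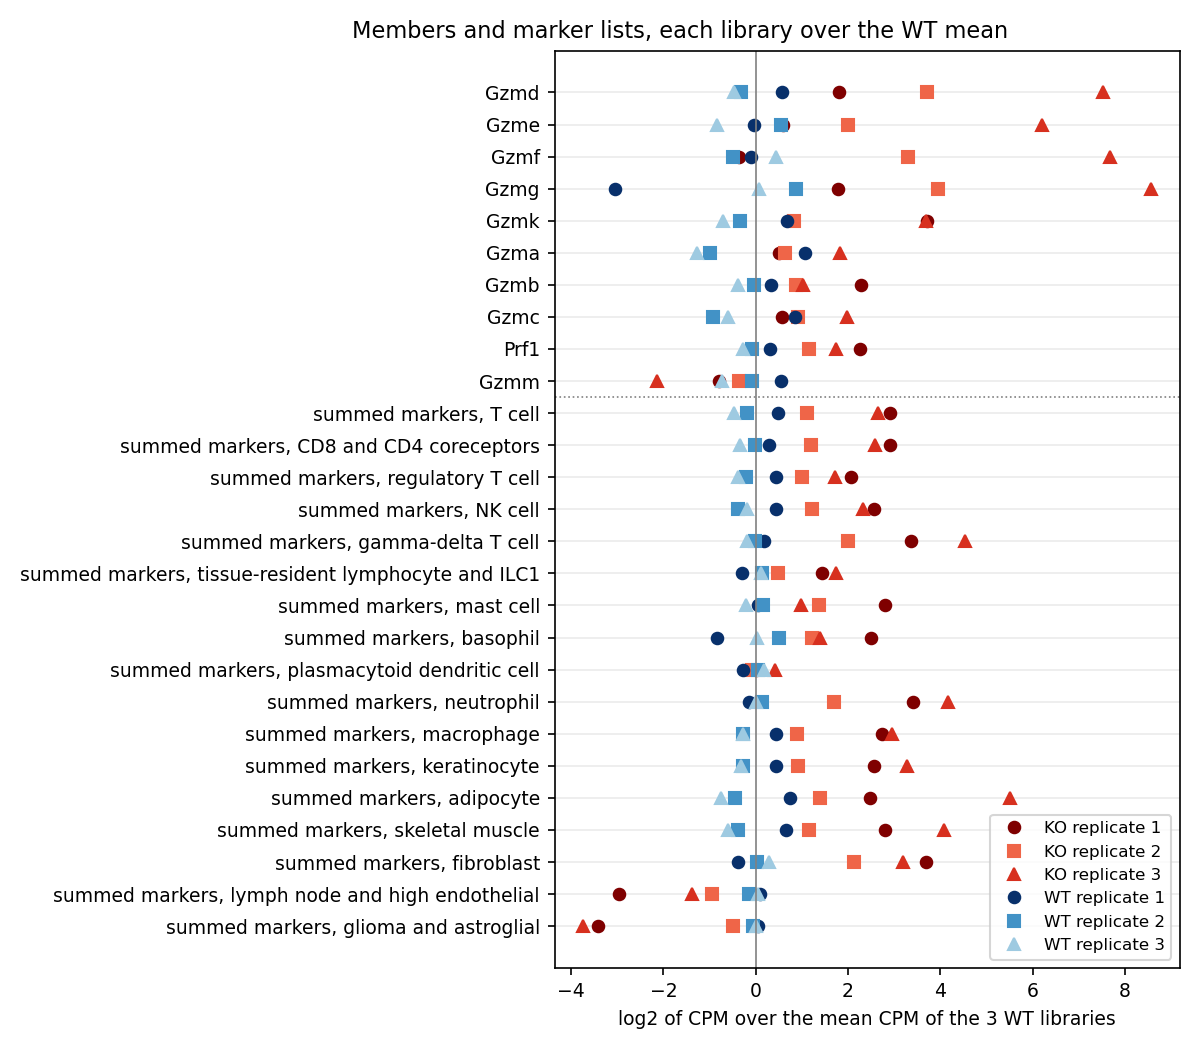
Each member (top) and each summed list of cell type markers (bottom) in every library, as log2 of the level over the mean of the 3 WT libraries. Gzmd to Gzmg in KO replicate 3 lie further right than any marker list.

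Set against the mean log2 CPM of the 10 T cell markers in the same library, the order of the groups changed for several members. Gzmb was 1.16, 1.54 and 0.29 log2 units above that mean in the KO libraries and 1.77, 1.97 and 1.93 above it in the WT libraries, so relative to these T cell markers every KO library was below every WT library. For Gzmm the values were -6.72, -4.54 and -7.46 in KO and -2.93, -2.95 and -3.22 in WT, again without overlap. Gzmm rests on 4 to 47 counts per library, and its groups overlapped in CPM. The marker mean itself was 5.92, 4.12 and 5.54 log2 CPM in KO and 3.36, 2.78 and 2.48 in WT. A gene that does not differ between the groups therefore tends to fall lower in KO on this scale. How many of all genes did so was not counted. Relative Prf1 levels were -0.27, 0.43 and -0.40 in KO and 0.33, 0.52 and 0.64 in WT, with KO replicate 2 between WT replicates 1 and 2.

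Gzma and Gzmc were also lower relative to T cell markers in the KO mean, by 0.93 and 0.94 log2 units, with overlapping groups. Gzmd, Gzme, Gzmf, Gzmg and Gzmk remained above the WT mean by 1.98, 0.61, 1.22, 2.71 and 0.49 log2 units, but KO replicate 1 was below the WT mean for Gzmd, Gzme, Gzmf and Gzmg: Gzmd, for example, was at -4.59 there and at -3.44 to -3.23 in WT. Relative to the mean of the 10 NK cell markers, Prf1 was 2.10, 2.18 and 2.11 log2 units higher in KO and 2.0, 2.75 and 2.29 higher in WT, and the groups overlapped. Gzmm was 2.85 log2 units lower in KO than in WT on that scale. The NK cell marker mean itself was 3.55, 2.38 and 3.02 log2 CPM in KO and 1.70, 0.55 and 0.83 in WT. Gzmb was at 3.53, 3.29 and 2.80 in KO and 3.44, 4.20 and 3.58 in WT relative to NK cell markers, and at 1.30, 1.19 and 1.99 in KO and 2.47, 1.72 and 2.02 in WT relative to the 10 mast cell markers. On both of these scales its groups overlapped.

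**Figure D4:**
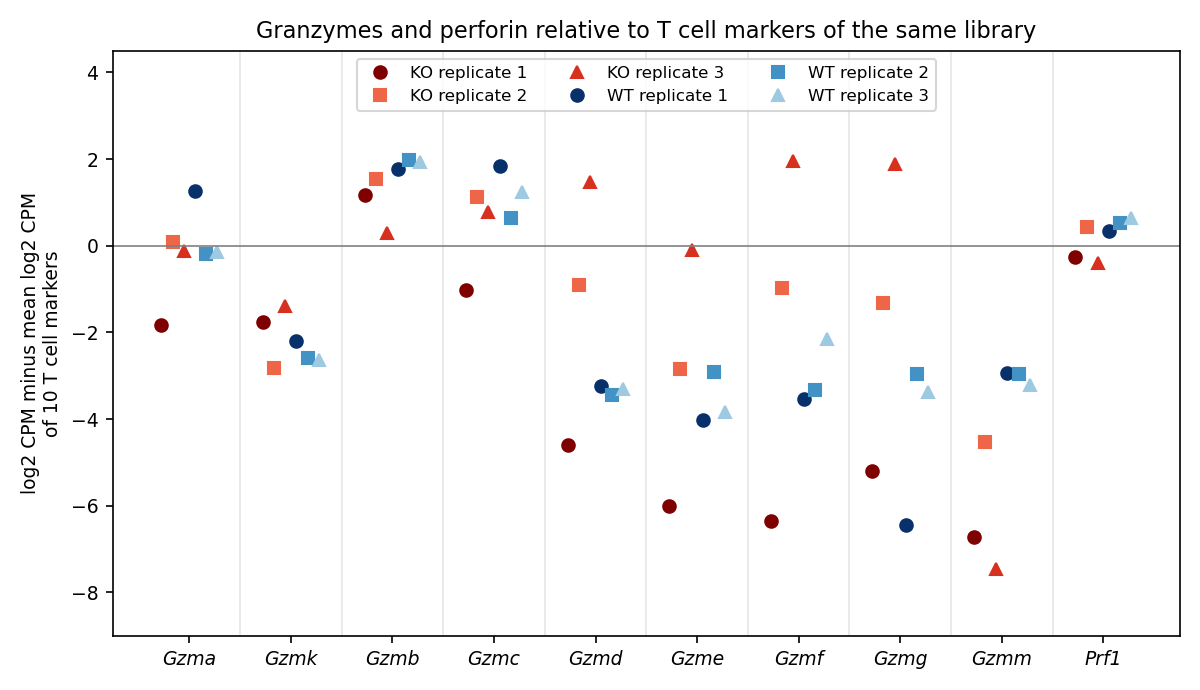
Log2 CPM of each member minus the mean log2 CPM of 10 T cell markers in the same library, with a point for each library. Gzmb and Gzmm lie lower in every KO library than in every WT library on this scale, and Gzmd to Gzmg in KO replicate 3 lie above the WT libraries. The T cell marker mean was itself higher in every KO library than in every WT library.

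Genes that work with the granzymes were taken from 8 lists, chosen from textbook knowledge with earlier results of these data known. Of their 90 distinct genes 83 were tested, and edgeR called 27 higher and none lower in KO, beside 11.2% of all genes higher. Their median log2 fold change was 1.18. Marker lists of other cell types were called higher as well, with 7 of 8 macrophage and 7 of 8 fibroblast markers. The part of such cells in the levels of the pathway genes was not tested. Of the 83, 3 were lower at an unadjusted p under 0.05, beside 1782 of 18621 genes. DESeq2 called 2 of them lower, Hmgb2 and Serpina3n, beside 1095 of 20795 genes. As for the members, the calls rested on the set of libraries. Without KO replicate 3, 18 were higher (4.85% of all genes), and without KO replicate 2, 48 (22.7%). Without KO replicate 1 or any WT library none was called (0% of all genes). There 38 to 48 were higher at an unadjusted p under 0.05, beside 3096 to 3982 of 19380 to 19694 genes.

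Among genes of granule maturation and cargo, 3 of 10 were called higher in KO, beside 11.2% of all genes tested. Ctsc, the dipeptidase cathepsin C that activates progranzymes, was at 880, 343 and 372 CPM in the KO libraries and 125, 153 and 119 CPM in the WT libraries (log2 fold change 2.0, SE 0.44). Cst7, cystatin F, an inhibitor of cathepsin C, rose by 2.16 (SE 0.44), and Igf2r, a mannose 6-phosphate receptor that carries granzymes to granules, by 3.11 (SE 0.42). Srgn, the serglycin core protein that binds granzymes, had 202, 105 and 453 CPM in the KO libraries and 88.0, 60.3 and 45.6 CPM in the WT libraries and was not called (1.97, SE 0.55). Nkg7, a granule membrane protein, was not called either (1.77, SE 0.49).

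Of 12 tested genes of granule exocytosis, 2 were called higher, beside 11.2% of all genes tested. These were Rab27a, the small GTPase that docks granules (log2 fold change 2.54, SE 0.45), and Vamp8, a vesicle SNARE (2.5, SE 0.60). Unc13d, the priming factor Munc13-4, was at 65.1, 36.9 and 48.5 CPM in the KO libraries and 35.2, 26.6 and 25.0 CPM in the WT libraries and was not called (0.79, SE 0.30). Stx11, a syntaxin of cytotoxic granules, was near 0 (0.04, SE 0.29). The median of the list was 0.81.

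Inhibitors of granzymes gave 3 of 5 called higher, beside 11.2% of all genes tested. Serpinb9, the inhibitor of granzyme B, was at 56.1, 26.1 and 46.3 CPM in the KO libraries and 8.63, 12.1 and 12.4 CPM in the WT libraries (log2 fold change 1.95, SE 0.36). Serpinb6a rose by 3.74 (SE 0.78), from 18.7 to 30.7 CPM in the WT libraries to 211, 68.8 and 630 CPM in the KO libraries, and Serpinb6b by 1.91 (SE 0.47). Serpina3n, a secreted inhibitor that mouse astrocytes also make, was below every WT library in all 3 KO libraries, at 75.9, 450 and 79.4 CPM against 609 to 713 CPM, and was not called (-1.71, SE 0.70).

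Among substrates and effectors of granzyme-induced death, none of 16 was called in either direction by edgeR. Of all genes tested, 11.2% were called higher and 0.226% lower. At an unadjusted p under 0.05 by edgeR, 3 of the 16 were higher and 2 lower, beside 4137 and 1782 of 18621 genes. The median log2 fold change of the 16 was 0.10. DESeq2 called 1 higher and 1 lower (Hmgb2), beside 3359 and 1095 of 20795 genes. Limma-voom with quality weights called 4 higher and 6 lower, beside 5531 and 4749 of 18621 genes. With no filter on low counts edgeR called 1 higher (2880 of 33054 genes), and with a stricter filter also 1 (2120 of 15921 genes). Without KO replicate 2, edgeR called 3 higher and 4 lower, beside 4449 and 3629 of 19592 genes. The smallest p-values belonged to Casp8 (0.99, SE 0.27), an initiator caspase, Mcl1 (1.53, SE 0.42), an anti-apoptotic protein that granzyme B cleaves, and Hmgb2 (-1.22, SE 0.42), a chromatin protein and granzyme A substrate. Hmgb2 was at 101, 204 and 86.1 CPM in the KO libraries and 405, 250 and 256 CPM in the WT libraries, below WT in all 3 KO libraries.

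Other mediators of killing gave 3 of 7 called higher, beside 11.2% of all genes tested. Fasl, the Fas ligand, was at 12.0, 3.96 and 7.13 CPM in the KO libraries and 2.30, 1.94 and 2.11 CPM in the WT libraries (log2 fold change 1.86, SE 0.49). Tnf rose by 1.63 (SE 0.37) and the TRAIL receptor gene Tnfrsf10b by 2.34 (SE 0.47), whereas Ifng was at 10.2, 7.86 and 5.83 CPM in the KO libraries and 5.96, 2.65 and 1.93 CPM in the WT libraries, with overlap, and was not called (1.18, SE 0.52). Without KO replicate 3 none of the list was called, beside 4.85% of all genes called higher.

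All 15 transcription factors of granzyme and perforin genes had each KO library above each WT library, beside 24.6% of all genes, and 8 were called higher, beside 11.2% (median log2 fold change 1.77). Tbx21, which encodes T-bet, was at 23.0, 9.09 and 14.6 CPM in the KO libraries and 2.95, 3.13 and 2.92 CPM in the WT libraries (2.37, SE 0.43), and Eomes at 12.6, 5.75 and 14.6 CPM in the KO libraries and 2.98, 2.17 and 1.22 CPM in the WT libraries (2.37, SE 0.53). Runx3 (1.77, SE 0.32), Prdm1, encoding Blimp-1 (1.72, SE 0.26), Irf4 (2.95, SE 0.50), Bcl6 (1.24, SE 0.30), Stat4 (2.02, SE 0.44) and Hic1 (2.78, SE 0.40) were also called. Of all 15, Eomes, Id2 (387 against 180 CPM) and Zeb2 (218 against 163 CPM) were higher in KO replicate 3 than in KO replicate 1, whereas Gzmd to Gzmg were 49.0 to 265 times as high there. Without KO replicate 3, 5 of the list were called, beside 4.85% of all genes called higher.

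Of 13 tested cytokines and receptors that raise granzymes, 6 were called higher, beside 11.2% of all genes tested. All 6 were receptor chains. Il2ra, Il2rb and Il2rg, the chains of the interleukin-2 receptor, rose by 2.51 (SE 0.40), 2.24 (SE 0.40) and 2.48 (SE 0.41). Il18r1 and Il18rap, the interleukin-18 receptor, rose by 2.48 (SE 0.44) and 2.49 (SE 0.37), and Il21r by 2.14 (SE 0.38). The cytokine genes Il15 (-0.64, SE 0.44), Il18 (0.91, SE 0.47), Il21 (0.46, SE 0.65) and Il12b (2.51, SE 0.75) were not called. Neither were the receptor genes Il12rb1 (-0.25, SE 0.48), Il15ra (0.25, SE 0.40) and Il12rb2 (1.65, SE 0.66), and Il2 and Il12a did not pass the filter. Il2 was at 0.256 to 0.476 CPM in the KO libraries and 0.0285 to 0.219 CPM in the WT libraries.

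**Figure D5:**
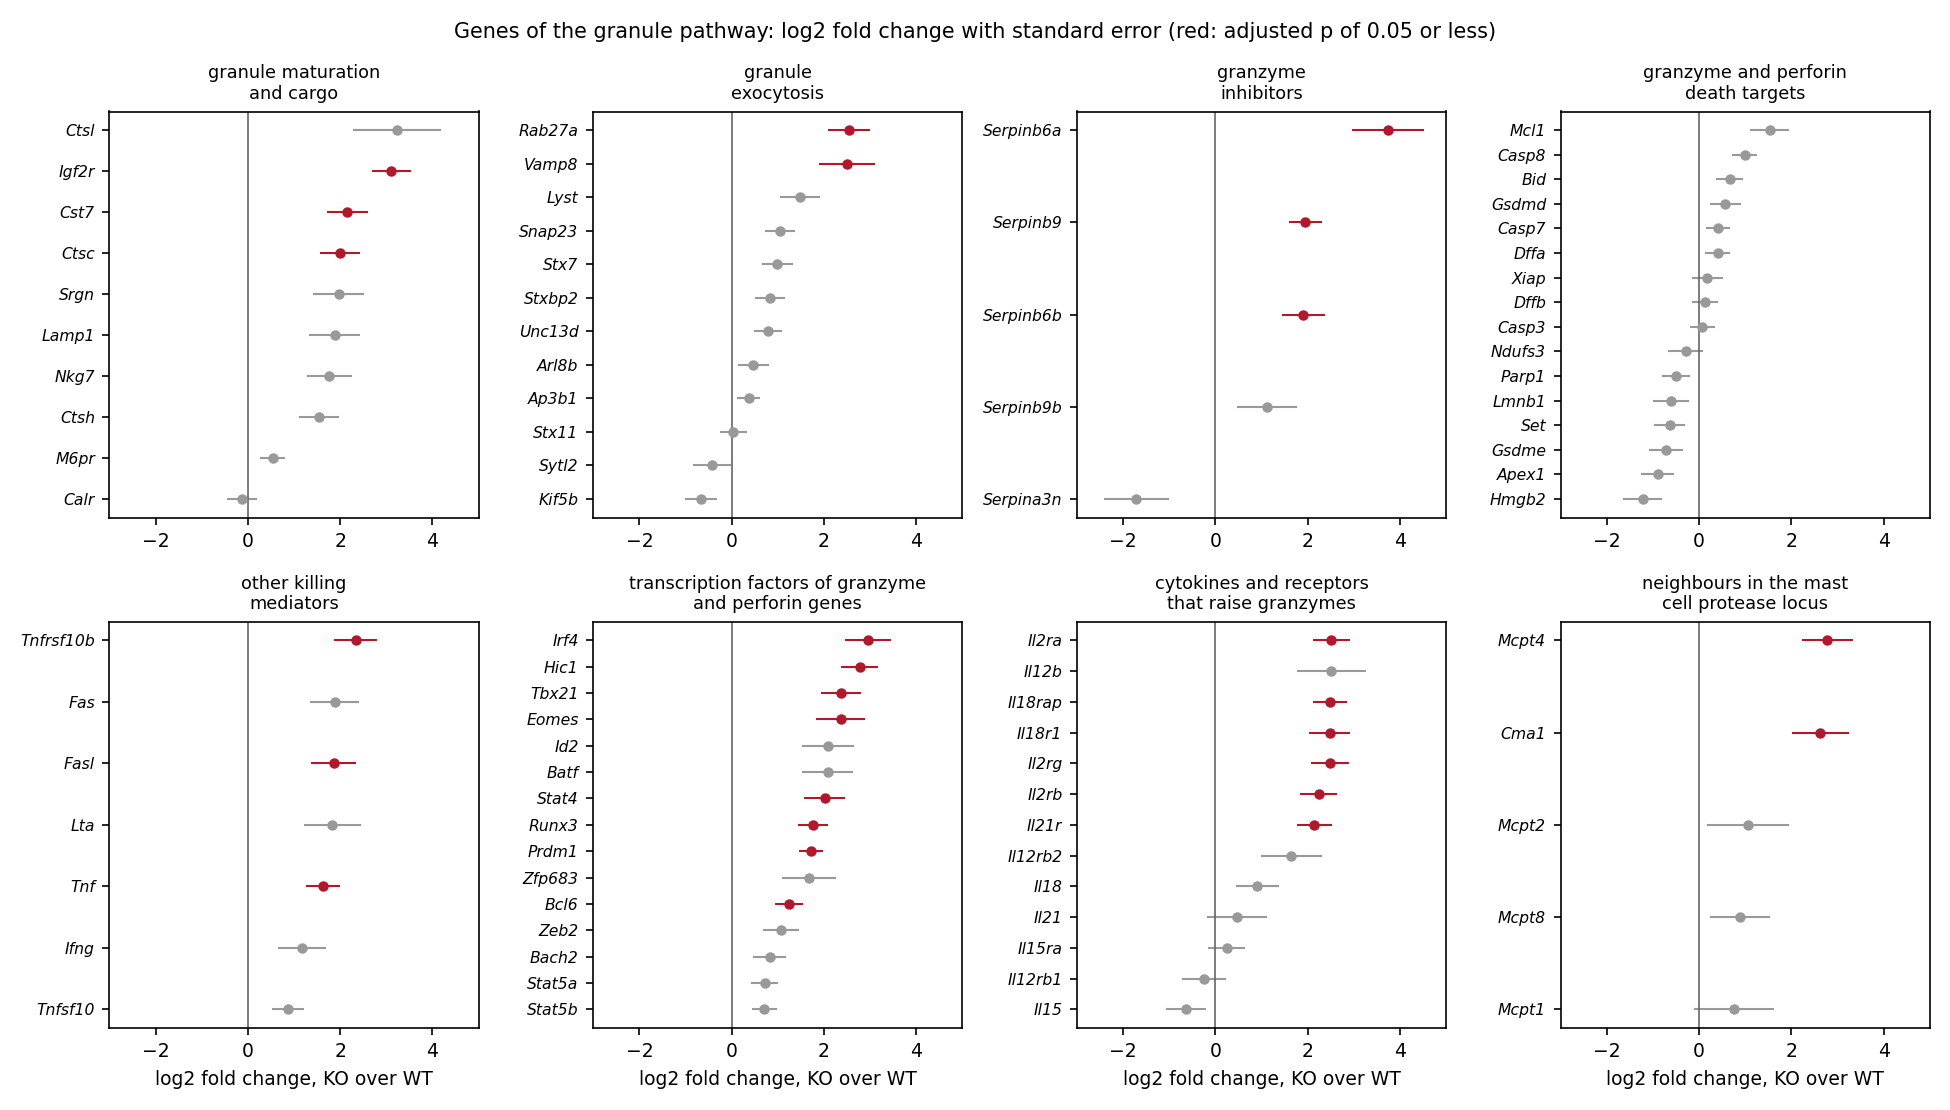
Log2 fold change of KO over WT with its standard error for the tested genes of the 8 pathway lists, with genes past an adjusted p of 0.05 in red. The 15 transcription factors lie to the right of 0, and the death targets scatter around it with a median of 0.10.

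The listed neighbours of the granzymes on chromosome 14 are mast cell proteases together with the basophil marker Mcpt8, Ctsg and Gzmn. Of the 5 tested ones 2 were called higher, beside 11.2% of all genes. Cma1, mast cell chymase, was at 158, 45.5 and 39.6 CPM in the KO libraries and 14.1, 17.5 and 7.68 CPM in the WT libraries (log2 fold change 2.63, SE 0.61), and Mcpt4, another chymase, had the same order of KO libraries (2.78, SE 0.56). Mcpt1 and Mcpt2, proteases of mucosal mast cells, were lowest among KO libraries in KO replicate 3, at 5.98 and 3.69 CPM against 30.7 and 59.4 CPM in KO replicate 1. Levels in KO replicate 3 relative to KO replicate 1 were 0.251 for Cma1, 0.195 for Mcpt1, 0.0622 for Mcpt2 and 0.274 for Mcpt4. Further along the locus the ratios were 49.0 for Gzme, 52.7 for Gzmd, 110 for Gzmg and 265 for Gzmf. For Gzmc and Gzmb they were 2.65 and 0.42. Genes with few counts between these, Cma2 (1.76), Mcpt8 (1.22), Ctsg (3.48) and Gzmn (3.66), did not follow an even course. Gzmn, which lies inside the Gzmd to Gzmg stretch, had only 2, 1 and 5 counts in the KO libraries and none in WT. Ctsg, the neutrophil and mast cell cathepsin G next to Gzme, had 24, 10 and 57 counts in the KO libraries and 2, 5 and 0 counts in the WT libraries and did not pass the filter.

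Genes with the most similar profile over the 6 libraries were named by the root mean square distance between centred log2 CPM values, among 12661 genes. Nearest to Gzmb, whose own spread was 0.864 log2 units, were Gpr171 (distance 0.0995), Il18bp (0.112), Fcgr1 (0.12) and Cd86 (0.135), then Pdlim2, Haao and Plac8. Nearest to Prf1 (spread 0.939) were Hspb7 (0.0905), Cish (0.117), Rgs2 (0.121) and Dok3 (0.123), then Prkd2, BE692007, Def6 and Cacnb1. Gzma (spread 1.09) had less close neighbours, led by Jsrp1 (0.303), Foxp3 (0.305) and Sncg (0.326), then Nnmt, Vamp5, Hopx, Tarm1 and mt-Co2. Foxp3 shared with Gzma a high WT replicate 1, at 28.7 CPM against 7.92 CPM in WT replicate 3.

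For Gzmc to Gzmg summed (spread 1.81) the nearest genes were mt-Nd3 (0.452), Hbb-bs (0.507), Gpihbp1 (0.545) and Depp1 (0.556), then Ctsl, mt-Nd6, Pf4 and Cfd. These include mitochondrially encoded, haemoglobin, capillary and fat genes. For Gzmd to Gzmg summed (spread 2.78), a profile added after the values had been seen, the nearest were Chil3 (0.672), Car4 (1.08), Cbr2 (1.13) and Retnla (1.13), then Alox15, F7, Mmp12 and Fabp4. Chil3, a chitinase-like protein of macrophages, was at 12.3, 19.5 and 459 CPM in the KO libraries and 5.19, 2.99 and 1.76 CPM in the WT libraries. These distances are over only 6 libraries that share their depth and makeup, and they describe those libraries.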

How the data were processed

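RNA was measured in 6 bulk libraries (3 Siglece KO, 3 WT), prepared from sampled CT2A cells with Smart-seq2, per the labels' protocols; this method does not mark strand. The deposited values are whole-number counts per gene, which the authors made on mm10, per the submitters' processing notes, which also name DESeq2. The aligner, counter and read length remain unknown (not given in the sources used here).

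Counts were fitted in R 4.3.3 with edgeR 4.0.16 (TMM scaling, filterByExpr, quasi-likelihood F test, Benjamini-Hochberg over 18621 genes, threshold 0.05, group as the only term). The standard error of a log2 fold change was derived from the F statistic. CPM used TMM-scaled library sizes, log2 CPM a prior count of 2, RPKM the merged exon length, and intervals the exact 95% binomial method. Alternatives were RLE scaling, no scaling, no or a stricter low-count filter (1 CPM in 3 libraries), DESeq2 1.42.0, limma-voom (limma 3.58.1) with and without quality weights, each library left out, and summed granzyme counts. The scripts were tested on simulated data.

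The members and all gene lists were chosen with earlier results of these data known. All members are named, with called genes of each pathway list or otherwise up to 3 with the smallest p, and the 8 genes nearest in profile to Gzma, Gzmb, Prf1 and the Gzmc to Gzmg sum, of which 1 is not reported here; the other genes named were chosen after their values were seen. Of 55291 symbols, 52905 matched GENCODE M21 gene spans. Vamp7 and 3 gamma-delta T cell constant genes were not analysed here.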

Additional observations from a re-analysis of the deposited data

How the results depend on the processing

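The sign of each member's log2 fold change was the same in all settings in which it could be fitted, but the sizes moved: Gzmf was at 6.16 by edgeR, 3.36 by limma-voom and 1.33 using quality weights. Of all genes, 2083 were called higher and 42 lower by edgeR. DESeq2 called 3359 and 1095, limma-voom using quality weights 5531 and 4749, and plain limma-voom 988 higher. Genes called lower numbered 24 without composition scaling and 476 without the low-count filter. Leaving out 1 library gave 0 to 4449 higher and 0 to 3629 lower. Of the members, 3 were called higher, against 7 without the low-count filter, 6 by DESeq2, 1 by limma-voom, 6 by limma-voom using quality weights, and 0 to 7 when 1 library was left out. Of the pathway genes, 27 were called higher and 0 lower. Quality weights gave 56 and 8, DESeq2 gave 2 lower, and leaving out 1 library gave 0 to 48 higher and 0 to 5 lower. Gzmc to Gzmg summed had a log2 fold change of 3.37 and was not called. Gzmd to Gzmg summed, an alternative chosen after seeing the data, was called (6.14), and among the fits without 1 library only without KO replicate 2 (6.63). The cause of these differences was not tested. No paired analysis was possible because the labels give no replicate numbers. DESeq2 gave no adjusted p for Gzmg, and Gzme and Gzmm did not pass the stricter filter. Depth limits Gzmm, at 4 to 47 counts per library, and Gzmg in WT replicate 1, at 2 counts.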
